A study of Mus musculus with 50 samples.

Results

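The genes described here are 10 components of the BMP and TGF-beta pathway in hemogenic endothelial cells: the receptors Eng, Acvrl1, Tgfbr2 and Bmpr2, the signal carriers Smad1 and Smad5, the inhibitory Smads Smad6 and Smad7, and the target genes Id1 and Id3. They were listed by name as parts of this pathway, with earlier results of these data known, and each of the 10 had a row among the 11879 gene rows of the table. The data were the transcriptomes of 50 single mouse cells of 1 group, iR-iHEC, that is induced hemogenic endothelial cells made from iRunx1-ESC, an embryonic stem cell line of C57BL/6 background with a doxycycline-inducible Runx1 cassette in the Rosa26 locus. According to the study's methods, BMP4 and VEGF were given early in the culture, doxycycline was added with the later medium, and the cells were sorted as CD31+CD41lowCD45-c-kit+CD201high. The group had no uninduced or other control in these data, and all 50 cells carried the cassette and received doxycycline.

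BMPs and TGF-beta bind complexes of type I and type II receptors on the cell surface. The type II receptor activates the type I receptor, which phosphorylates receptor Smads. These join Smad4, enter the nucleus and switch on targets that include the Id genes and the inhibitory Smads, which in turn limit the signal. Endothelial cells carry a type I receptor of their own, ALK1 (encoded by Acvrl1), and its co-receptor endoglin (Eng), and mutations of either cause hereditary hemorrhagic telangiectasia, a disease of malformed vessels.

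Values were TPM, transcript levels scaled by gene length and by the total of each cell. Comparisons of level between genes rest on that scaling alone, as the RNA was amplified and no molecular identifiers are named. Expressed, below, means above TPM 1 in that cell. The labels name no separate culture or animal, so the 50 cells count as 1 sample with no replicate, and no test between groups was possible. The exact Clopper-Pearson 95% intervals cover counting error over cells only. TPM keeps no depth, so a value of 0 is described only as listed at 0. The titles of the cells carry 2 numbers. The first runs from 1 to 4, with 11, 14, 13 and 12 cells, and the labels do not say what it stands for. It was treated as a possible batch, and cells are named by both numbers.

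The cells carried endothelial transcripts throughout, together with some transcripts of blood cells. All 8 endothelial markers were above TPM 1 in 25 or more cells, and their summed level ran from 499 to 7068 TPM. Of 7 blood markers, 3 reached that share, with Ptprc (CD45) in 0 cells, and the sum ran from 14.0 to 7422 TPM with a median of 607, against 2979 for the endothelial sum. Laptm5 was in 48 cells at a median of 194 TPM and Fcer1g in 41. Of the 3 megakaryocyte markers with a row, 1 reached that share. This was Itga2b (CD41), part of the sort, in 40 cells at a median of 42.98 TPM, while Pf4 was in 17 cells and Gp9 in 3. None of the 4 erythroid markers with a row was in 25 cells, Gata1 was in 0 cells, and their sum was 0 in the median cell and 821 TPM at most. None of the 6 mesenchymal markers with a row did, their sum was at most 26.2 TPM, and Pdgfrb, Col3a1 and Acta2 were in 0 cells. The median cell had 6223.5 genes above TPM 1. Cell 4-6 stood apart with 2400, and 7 cells had fewer than 5000.

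Of the 10 genes, 9 were expressed in 25 or more of the 50 cells, and Bmpr2 was the exception. Among all 11879 rows, 53.2% reached that share. Id3 had the highest median level, followed by Eng, Id1, Acvrl1, Smad1, Tgfbr2, Smad6, Smad5, Smad7 and Bmpr2. The median share of expressing cells over the 10 genes was 83%.

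Endoglin was the most widely expressed of the 10. Its transcript passed TPM 1 in each of the 50 cells (100%, interval 92.9% to 100%), and Eng had a lowest value of 3.01, a median of 345 and a highest value of 1115 TPM. Only cells 4-6 and 4-13, at 3.01 and 3.55 TPM, lay under 10 TPM. The median of Eng was above that of 96.2% of all rows. Eng lies at chr2:32646595-32682669 on the plus strand (mm10, GENCODE M21). Of the 4 annotated genes that overlap it, 1 is on the opposite strand, and the strand setting of the counting is not given in the sources used here.

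Acvrl1, which encodes the type I receptor ALK1, was expressed in 45 of 50 cells (90%, 78.2% to 96.7%). Its level ran from 0.119 to 503 TPM with a median of 96.4, and no cell was listed at 0. The gene overlaps the antisense gene Gm16031, whose reads cannot be told apart from its own where strand was not used. Within most cells Acvrl1 stood above the other type I receptors with a row: above Tgfbr1 (ALK5, the TGF-beta type I receptor) in 48 cells, above Bmpr1a (ALK3) and Acvr1b (ALK4) in 47 each and above Acvr1 (ALK2) in 46.

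The type II receptors were lower. Tgfbr2, the type II receptor for TGF-beta, was expressed in 42 cells (84%, 70.9% to 92.8%), with a median of 29.03 and a highest value of 171 TPM, and 5 cells were listed at 0. Bmpr2, the type II receptor for BMPs, was expressed in 18 cells (36%, 22.9% to 50.8%). Its median was 0, its highest value was 56.6 TPM and 30 cells were listed at 0. Acvrl1 was above Tgfbr2 in 38 cells and above Bmpr2 in 47. Thus the 2 type II receptors differed in reach, with intervals that did not overlap.

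Smad1 and Smad5 encode the receptor Smads of the BMP and ALK1 branch. Smad1 was expressed in 41 cells (82%, 68.6% to 91.4%), from 0 to 364 TPM with a median of 51.9, and 5 cells were listed at 0. Smad5 was expressed in 37 cells (74%, 59.7% to 85.4%), from 0 to 58.1 TPM with a median of 7.56. Smad1 was the higher of the pair in 38 of 50 cells, although the shares of expressing cells overlapped within their intervals.

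The inhibitory Smads were also common. Smad6, which mainly limits BMP signals, was expressed in 38 cells (76%, 61.8% to 86.9%), with a median of 22.99 and a highest value of 399.8 TPM, and 7 cells were listed at 0. Smad7, which limits both branches, was expressed in 32 cells (64%, 49.2% to 77.1%), with a median of 4.83 and a highest value of 123 TPM, and 15 cells were listed at 0. Both had their highest value in cell 4-3. Smad6 was the higher of both genes in 37 cells and Smad7 in 10.

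The Id genes, which encode inhibitors of basic helix-loop-helix factors and are classical BMP targets, were expressed in nearly all cells. Id1 passed TPM 1 in 49 cells (98%, 89.4% to 99.9%). Its median was 169 and its highest value 1670.2 TPM. Id3 did so in 48 (96%, 86.3% to 99.5%), at a median of 382 and a highest value of 2186 TPM. Id1 was listed at 0 in 1 cell and Id3 in 2. Id3 was the higher of the pair in 36 cells, and at least 1 of them was expressed in 50 of 50.

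**Figure D1:**
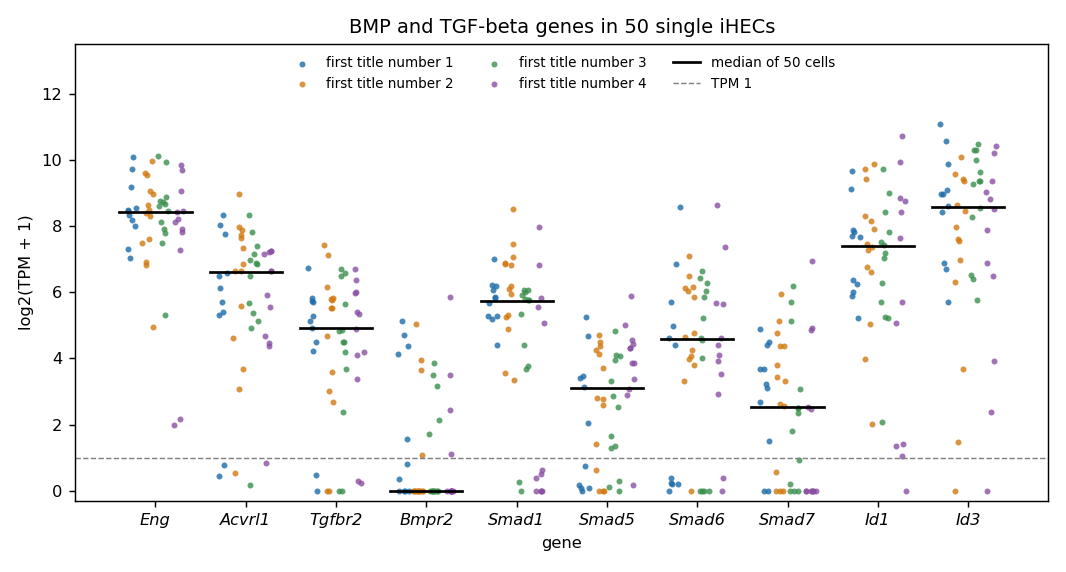
Levels of the 10 genes in 50 single iHECs, as log2(TPM + 1) on the vertical axis for each gene on the horizontal axis. Each point is 1 cell coloured by the first number of its title, the bars are medians over 50 cells and the dashed line is TPM 1. Eng is above the line in every cell, the median of Bmpr2 is at 0, and most of the low points of Smad1 belong to number 4.

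Neighbours in the order of medians often changed places within cells. Id3 was above Eng in 29 cells (58%, 43.2% to 71.8%), Id1 above Acvrl1 in 32 (64%, 49.2% to 77.1%) and Acvrl1 above Smad1 in 32. Smad1 was above Tgfbr2 in 31, Tgfbr2 above Smad6 in 29 and Smad5 above Smad7 in 27. Each of these intervals held 50%, so the order of these neighbours was not resolved with 50 cells. Of the 9 neighbouring pairs, those ordered beyond counting error were Eng above Id1 in 40 cells (80%, 66.3% to 89.97%), Smad6 above Smad5 in 37 (74%, 59.7% to 85.4%), and Smad7 above Bmpr2 in 28 of the 38 cells where they were not equal (73.7%, 56.9% to 86.6%). In the other 12 cells Smad7 and Bmpr2 were equal.

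Sets of components that work together were counted within cells. Tgfbr2 and Acvrl1 were expressed together in 38 cells (76%, 61.8% to 86.9%). Eng, Acvrl1 and Bmpr2 were expressed together in 16 cells (32%, 19.5% to 46.7%), so most cells with the ALK1 pair had no Bmpr2 above TPM 1. The activin type II receptors Acvr2a and Acvr2b can take its place in BMP complexes. With those included, 36 cells (72%, 57.5% to 83.8%) had a type II receptor that serves BMPs. At least 1 of Tgfbr2, Bmpr2, Acvr2a and Acvr2b was above TPM 1 in 49 cells. Smad1 or Smad5 was expressed in 49 cells (98%, 89.4% to 99.9%) and both in 29. Smad6 or Smad7 was expressed in 44 cells (88%, 75.7% to 95.5%) and both in 26. Smad4, the shared partner, was above TPM 1 in 39 cells, all of which also had Smad1 or Smad5.

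A median of 8 of the 10 genes was expressed per cell, with a range of 3 to 10. All 10 were expressed in 8 cells (16%, 7.17% to 29.1%), and 35 cells had 8 or more. The cell with 3 was cell 4-6, the one with 2400 genes above TPM 1. Over the 50 cells the count of these genes went with the number of genes above TPM 1 (Spearman's rho = 0.48, n = 50 cells). The part of detection in these counts was not tested.

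Levels were compared across the 4 first title numbers. Smad1 differed the most. It was expressed in 11 of 11 cells of number 1, in 14 of 14 of number 2 and in 11 of 13 of number 3, but in 5 of 12 cells of number 4. Its medians were 55.3, 69.1, 53.1 and 0.483 TPM in the same order. The first title number took up 29.4% of the variance of Smad1 on the log2(TPM + 1) scale, more than in 99.9% of all rows, for which the median was 5.20%. Smad5 went the other way, with 91.7% of cells and a median of 16.2 TPM in number 4, and 54.5% of cells and 3.16 TPM in number 1. The first title number took up 13.2% of its variance. The 4 groups of cells had similar numbers of genes above TPM 1, with medians from 6086 to 6243. Id3 followed with 11.3%, with medians from 222 to 653 TPM. Smad7 was in 41.7% to 81.8% of cells and Smad6 in 54.5% to 92.9%. Still, the first title number took up 4.553% and 4.603% of their variance, less than that median of 5.20%. Eng was in 100% of the cells of every number. Acvrl1 and Tgfbr2 varied little, at 81.8% to 92.9% and 81.8% to 85.7% of cells. As the labels do not say what the number marks, a difference in Smad1 between cultures and one between preparations cannot be told apart.

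Co-expression was examined next, as Spearman's rho of TPM over the 50 cells. These values describe cells that share a sort gate and a library method, and they carry no p. The 45 pairs of the 10 genes had a median rho of 0.11, from -0.27 for Tgfbr2 and Bmpr2 to 0.72 for Eng and Smad6. Of the 45, 9 pairs (20%) had a rho of 0.3 or more and 11 were below 0. Among all 41436856 pairs of the 9104 rows above TPM 1 in 10 or more cells, 4.46% reached 0.3, and the median was 0.045. Without first title number 2 the median rho of the 45 pairs was 0.213. Most pairs were not stable: 32 of the 45 changed sign between first title numbers and 17 when 1 number was left out. Of the 9 pairs at 0.3 or more, 4 dropped under 0.3 when 1 number was left out, to 0.194 at the lowest, 1 changed sign between numbers and 1 reversed among cells with both genes above 0. The 4 pairs that reached 0.3 within every number were Eng with Smad6, Smad7 and Id3, and Smad6 with Id3.

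**Figure D2:**
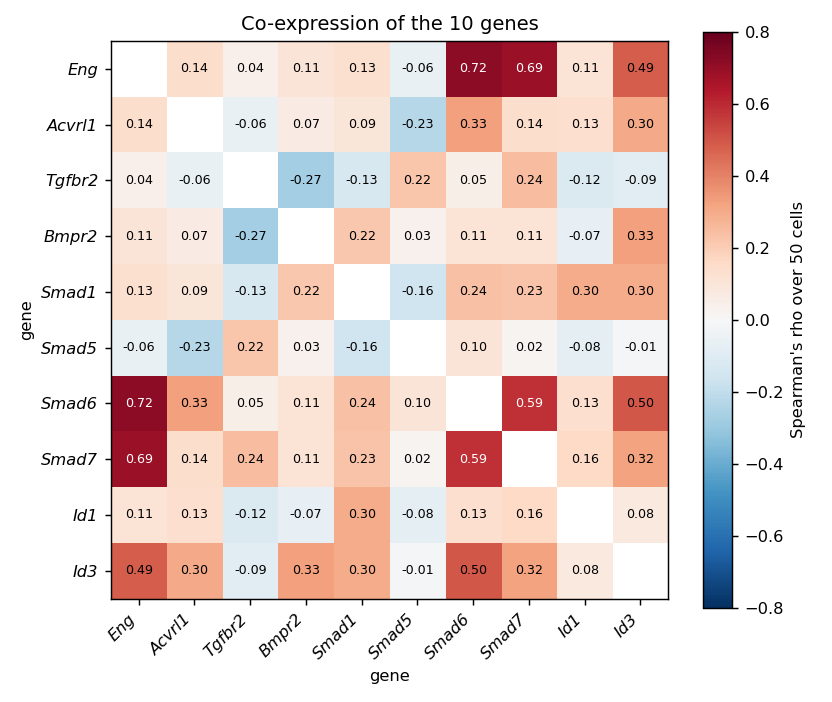
Spearman's rho over 50 cells for each pair of the 10 genes, with the value printed in each square and colour from blue (negative) to red (positive). Eng, Smad6 and Smad7 form the group with the highest values, at 0.59 to 0.72, and Id3 joins Eng and Smad6 at 0.49 and 0.50.

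The strongest pattern joined endoglin to the inhibitory Smads. In cell 1-14, Eng was at 1075 TPM, Smad6 at 383 and Smad7 at 28.7. In cell 4-3, Eng was at 927 TPM, Smad6 at 399.8 and Smad7 at 123. In cell 4-6, Eng was at 3.01 TPM, Smad6 at 0.32 and Smad7 at 0, but this was the cell with only 2400 genes above TPM 1. Other cells went against the pattern: cell 3-5 had 436 TPM of Eng with Smad6 and Smad7 both at 0, cell 3-3 had 405 TPM of Eng with Smad6 at 0, and cell 1-9 had 575 TPM of Eng with 0.152 TPM of Smad6. Over all cells, Eng and Smad6 had a rho of 0.72 and lay on the same side of their medians in 40 of 50 cells. Eng and Smad7 had a rho of 0.69 and did so in 38 of 50. Of 9103 other rows, Smad6 and Smad7 were the first and the second nearest to Eng, and Eng was the nearest to each of them. In all, 3 of the 9 other genes reached 0.3 with Eng, against 3.35% of the 9103 rows.

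The pattern was present within each first title number. Eng and Smad6 had rho values between 0.59 and 0.88 there, and Eng and Smad7 between 0.56 and 0.79. Among the 43 cells with both Eng and Smad6 above 0, rho was 0.78. Without the 7 cells under 5000 genes, rho with Eng was 0.79 for Smad6 and 0.68 for Smad7. Over all 50 cells, holding the number of genes above TPM 1 constant left 0.72 for Smad6 and 0.69 for Smad7. Pearson's r of log2(TPM + 1) was lower, at 0.49 and 0.57. Smad6 and Smad7 had a rho of 0.59 with each other, with values within first title numbers from 0.15 to 0.70.

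Endothelial marker levels moved with these genes. The summed TPM of the 8 markers had a rho of 0.46 with Eng, 0.50 with Smad7 and 0.36 with Smad6. With that sum held constant, the partial rho was 0.66 for Eng and Smad6 and 0.60 for Eng and Smad7. Of the 9 pairs at 0.3 or more, 3 fell under that level: Acvrl1 with Smad6 (0.22) and with Id3 (0.20), and Smad7 with Id3 (0.18). The single markers differed: with Eng, Tie1 had a rho of 0.40, Kdr 0.31, Emcn 0.22, Pecam1 (CD31) 0.21, Egfl7 0.21, Esam 0.17, Tek 0.07 and Cdh5 (VE-cadherin) 0.04. Egfl7 and Esam made up 35.3% and 19.2% of the summed TPM. Dividing-cell markers had -0.22 with Eng and -0.13 with Smad6.

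**Figure D3:**
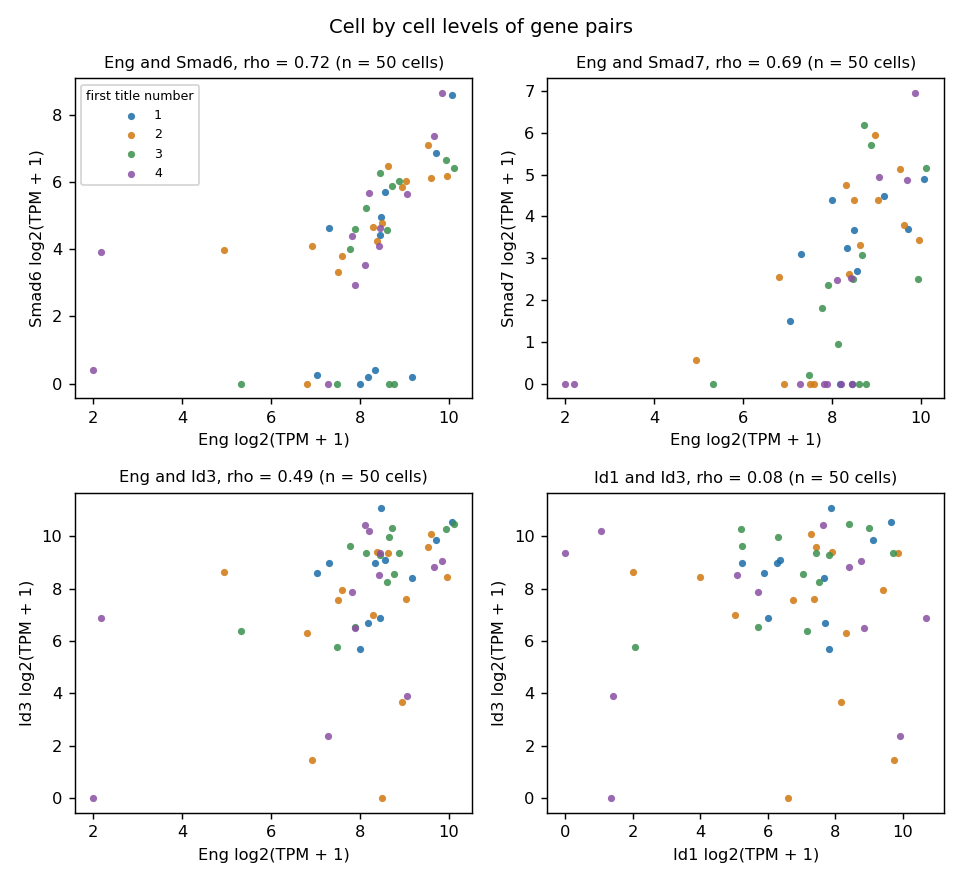
Levels of 4 gene pairs in the same 50 cells, each axis as log2(TPM + 1) and each point 1 cell coloured by the first number of its title. Smad6 and Smad7 tend to be higher where Eng is higher (rho 0.72 and 0.69), with exceptions such as cell 3-5. Id3 follows Eng less closely (0.49), and Id1 and Id3 show no common trend (0.08).

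The reference sequence upstream of Eng and of Smad6 is shown because these genes formed the pair with the highest rho. Of the 10 genes, 7 had an entry in the RefSeq promoter table (GRCm38.p6), and Id1, Acvrl1 and Smad7 had none there. Each sequence is the 250 bases before the annotated start, read on the strand of the gene. The capitals mark matches, on either strand, to CAGAC, the short element that Smad3 and Smad4 bind, or to GGCGCC, a GC-rich element bound by the BMP Smads.
Eng, chr2:32646345-32646594, plus strand: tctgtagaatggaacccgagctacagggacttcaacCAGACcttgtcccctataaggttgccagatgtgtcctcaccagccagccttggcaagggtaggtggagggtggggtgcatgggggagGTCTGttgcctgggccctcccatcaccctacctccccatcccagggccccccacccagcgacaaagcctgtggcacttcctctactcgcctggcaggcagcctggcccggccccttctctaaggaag
Smad6, chr9:64022060-64022309, minus strand: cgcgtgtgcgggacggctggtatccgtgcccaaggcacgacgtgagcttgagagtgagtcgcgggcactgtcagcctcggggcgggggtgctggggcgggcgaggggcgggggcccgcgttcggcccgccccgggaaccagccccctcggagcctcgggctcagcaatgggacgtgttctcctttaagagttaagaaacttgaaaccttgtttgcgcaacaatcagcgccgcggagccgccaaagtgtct
The Eng window held 2 matches to CAGAC and the Smad6 window none, and neither held GGCGCC. Over 27025 promoters of the same length, 42.1% held CAGAC and 9.54% held GGCGCC. The 2 windows differed in base content, with 4 CG dinucleotides in that of Eng and 27 in that of Smad6. A match to so short a word is a description of the sequence, not a binding site.

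Over all 50 cells, the Id genes had different partners. Id3 had a rho of 0.49 with Eng, 0.50 with Smad6 and 0.32 with Smad7, and within first title numbers the first 2 of these stayed between 0.41 and 0.87. Among the 34 cells with Smad7 and Id3 both above 0, however, their rho was 0.065. Id3 also had a rho of 0.30 with Acvrl1 and 0.33 with Bmpr2. The value for Bmpr2 rested on cells listed at 0: it was -0.39 among the 20 cells with both above 0, and 0.194 at the lowest when 1 first title number was left out. In all, 5 of the 9 other genes reached 0.3 with Id3, against 6.07% of the 9103 rows. Id1 had a rho of 0.11 with Eng, 0.13 with Smad6 and 0.08 with Id3, and none of the 9 reached 0.3, against 2.41% of the 9103 rows. These values varied between groups of cells: with Eng, Id1 had 0.69 within number 1 and -0.22 within number 4, and with Id3 it had 0.35, -0.07, 0.31 and -0.27 within numbers 1 to 4. With Smad7, Id1 had a rho of 0.16 over all cells, 0.64 within number 1 and 0.38 among the 35 cells with both above 0, so the contrast between Id1 and Id3 did not extend to Smad7 in those cells. Its highest value was with Smad1, which had a rho of 0.30 with each Id gene, just under that level. For Id1 this ran from 0.036 to 0.511 when 1 first title number was left out, with -0.24 within number 2, and was 0.078 among the 44 cells with both above 0. Cell 4-13 had the highest Id1 of all cells, at 1670.2 TPM, with Eng at 3.55 and Id3 at 118 TPM.

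**Figure D4:**
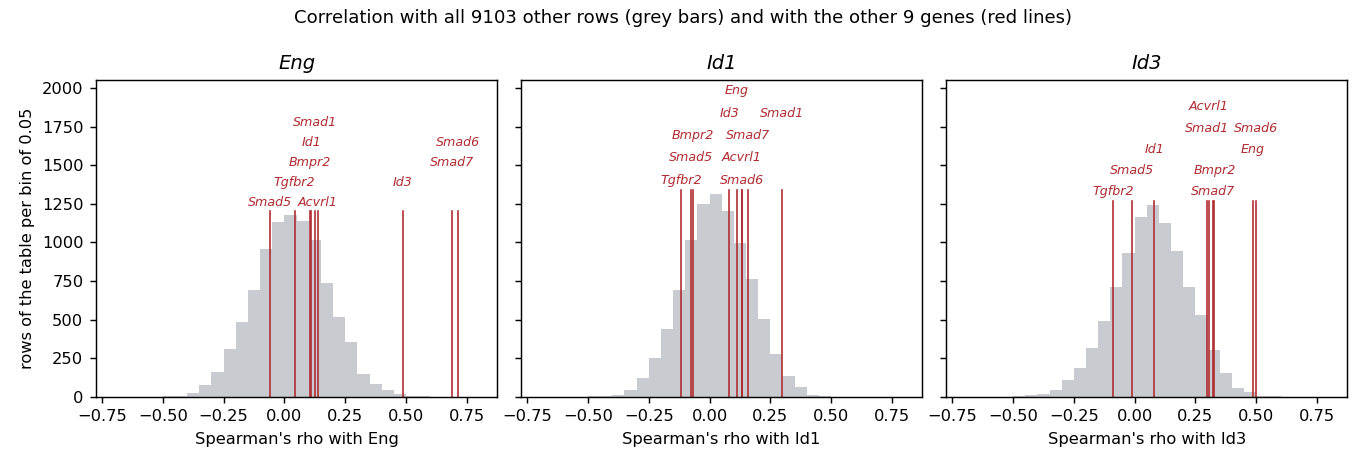
Histograms of Spearman's rho over 50 cells between 1 gene (Eng, Id1 or Id3) and 9103 other rows, with the horizontal axis showing rho and the vertical axis rows per bin of 0.05. The red lines mark the other 9 genes: Smad6 and Smad7 lie at the far right for Eng, while for Id1 the highest is Smad1 at 0.30.

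Over all cells, receptor pairs had low values. Eng and Acvrl1 had a rho of 0.14, Acvrl1 and Bmpr2 0.07, and Acvrl1 and Tgfbr2 -0.06. Eng had 0.11 with Bmpr2 and 0.04 with Tgfbr2. Within number 4 they were higher for some pairs, at 0.44 for Eng and Acvrl1, 0.64 for Acvrl1 and Bmpr2, 0.51 for Eng and Bmpr2 and 0.50 for Eng and Tgfbr2. Within numbers 1 to 3, Eng had 0.42, -0.14 and -0.20 with Bmpr2, and -0.51, -0.17 and 0.48 with Tgfbr2. Without number 4, Eng and Acvrl1 had 0.025 and Acvrl1 and Bmpr2 had -0.049. Acvrl1 reached 0.3 with 2 of the 9 other genes, Smad6 at 0.33 and Id3 at 0.30, against 3.38% of the 9103 rows. With Smad6 its rho was -0.05 within number 2 and 0.64 within number 1. Bmpr2 did so with 1, against 3.74%. Tgfbr2, Smad1 and Smad5 did so with none, against 1.88%, 2.7% and 4.41%. Smad6 did so with 4, against 4.53%, and Smad7 with 3, against 4.3%. Smad1 and Smad5 had a rho of -0.16 with each other, but -0.69 within number 3 and 0.69 within number 4, so no common direction was found. The means of log2 levels per role gave a rho of 0.47 between receptors and inhibitory Smads and 0.15 between receptors and Id genes. Receptor Smads had 0.37 with Id genes, and inhibitory Smads had 0.38. Both of these values are over all cells only. Smad5 on its own had a rho of -0.08 with Id1 and -0.01 with Id3.

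Each gene had other close neighbours among the 9103 rows. They are the 3 highest of many values, so a high rho follows from the choice. Mmrn2, which encodes the endothelial matrix protein multimerin-2, was the third nearest to both Eng (0.61) and Smad6 (0.58). Mcam (CD146), an adhesion molecule of endothelial cells, was the nearest to Acvrl1 (0.61), before Acsf2 and Zfp943. For Id3 the nearest were Ifngr2, a chain of the interferon-gamma receptor (0.57), Ephb4, the venous receptor for ephrin-B2 (0.56), and Actr1b (0.56). For Smad7 they were Eng, the RNA-binding protein gene Rbpms (0.61) and Acbd3 (0.60). Id1 had Ngly1 (0.54), Itm2a and Taok2, and shared none of these with Id3.

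For the other genes the neighbours were of mixed kinds. Tgfbr2 had Chmp7 (0.60), N4bp3 and Rnf10. Bmpr2 had Pcyox1 (0.63), the Notch co-activator gene Maml1 (0.56) and Slc38a9. Smad1 had A630007B06Rik (0.60), Anapc16 and Ifngr1, and Smad5 had Gabbr1 (0.53), Vav3 and Wdr20a. Within first title numbers, rho reached down to -0.02 for Smad1 with A630007B06Rik and to -0.01 for Smad1 with Ifngr1 and for Smad5 with Gabbr1, so these did not hold in every group of cells. At the other end, the lowest value of each gene included -0.56 for Smad6 with Nov and -0.54 for Acvrl1 with Hmgb3. For 7 further genes it was between -0.51 and -0.46, with Sarnp for Eng, Gtf2e2 for Tgfbr2, Eif3e for Bmpr2, Thumpd3 for Smad5, Bckdhb for Smad7, Gramd4 for Id1 and Gm14306 for Id3. Within single first title numbers, rho reached 0.46 for Smad5 with Thumpd3 and 0.55 for Id3 with Gm14306, the opposite sign.

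Runx1, the induced factor, had little relation to the 10 genes. Its rho was -0.28 with Acvrl1 and between -0.12 and 0.10 with the other 9. Summed blood markers had -0.32 with Id3 and -0.27 with Acvrl1, and megakaryocyte markers had -0.34 with Id3. Immediate early genes, which dissociation can raise, had -0.31 with Bmpr2. Smad5 had 0.34 with the number of genes above TPM 1. Smad1 had 0.36 with the summed mesenchymal markers, whose sum was 0 in the median cell. The part of these measures in the levels of the 10 genes was not tested.

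The rest of the pathway was read from lists of its components, whose counts are set against the 53.2% of all rows that were in 25 or more cells. Of 14 ligands, 6 had a row and 2 were in 25 or more cells. Tgfb1 was expressed in 41 cells at a median of 8.04 TPM, and Bmp2 in 28 (56%, 41.3% to 70.0%) at a median of 16.9 and up to 596 TPM. The other 4, named after their values were seen, were Bmp4 in 6 cells, Tgfb2 in 3, Inha in 2 and Bmp6 in 1.

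Of 11 other receptors and co-receptors, 7 had a row and 3 were in 25 or more cells. Tgfbr3 (betaglycan), the relative of endoglin, was expressed in 37 cells at a median of 14.6 TPM, and Eng was above it in 49 of 50. Tgfbr1 was expressed in 29 cells and Bmpr1a in 26. Acvr2b was in 21 cells, Acvr1 and Acvr2a in 19 each and Acvr1b in 18. Tgfbr1 and Tgfbr2, the pair that receives TGF-beta, were expressed together in 26 cells (52%, 37.4% to 66.3%). All 3 other Smads with a row passed 25 cells: Smad4 in 39, Smad2 in 37 and Smad3 in 27. Smad2 or Smad3, the receptor Smads of the TGF-beta branch, was in 44 cells.

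Inhibitors and modulators had 18 rows of 24 listed, 9 of them in 25 or more cells, a share near that of all rows. Fkbp1a, whose product FKBP12 holds type I receptors inactive, was expressed in 50 cells at a median of 1651 TPM. Fstl1, a secreted BMP antagonist, was in 48 cells at a median of 173 TPM. Bambi, a decoy receptor, was in 41 cells at 35.3 TPM. The Smad phosphatase gene Ppm1a was in 47, the co-repressor gene Skil in 44 and the ubiquitin ligase gene Smurf1 in 41. Smurf1 and Smurf2, whose products work with the inhibitory Smads, had rho values of 0.43 and 0.41 with Smad7, and 0.16 and 0.25 with Smad6. Fstl1 had 0.46 with Smad7, 0.42 with Tgfbr2, 0.41 with Smad6 and 0.39 with Eng. Bambi had 0.39 with Id3. The rho values of these other pathway genes, here and below, are over all 50 cells only, with none within first title numbers.

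The list of other targets, which also holds the E protein genes Tcf3, Tcf4 and Tcf12, had 14 rows of 16 listed, 8 of them in 25 or more cells, again near the share of all rows. Without these E protein genes it was 5 of 11. Id2 was expressed in 41 cells at a median of 97.1 TPM. Id1 was above Id2 in 33 cells and Id3 above it in 40, and 38 cells expressed all of Id1, Id2 and Id3. Tcf3, which encodes an E protein that Id proteins bind, was in 45 cells and had a rho of 0.39 with Id3 and -0.16 with Id1. The related Tcf4 and Tcf12 were in 48 and 42 cells. Gata2, a BMP-responsive factor of blood formation, was in 41 cells and had a rho of 0.33 with Smad1. The TGF-beta targets Klf10, Ctgf and Snai1 were in 44, 36 and 16 cells. Zeb2 was in 26, Hey1 in 14 and Atoh8 in 12, and 3 other genes of this list were in fewer than 10 cells each.

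**Figure D5:**
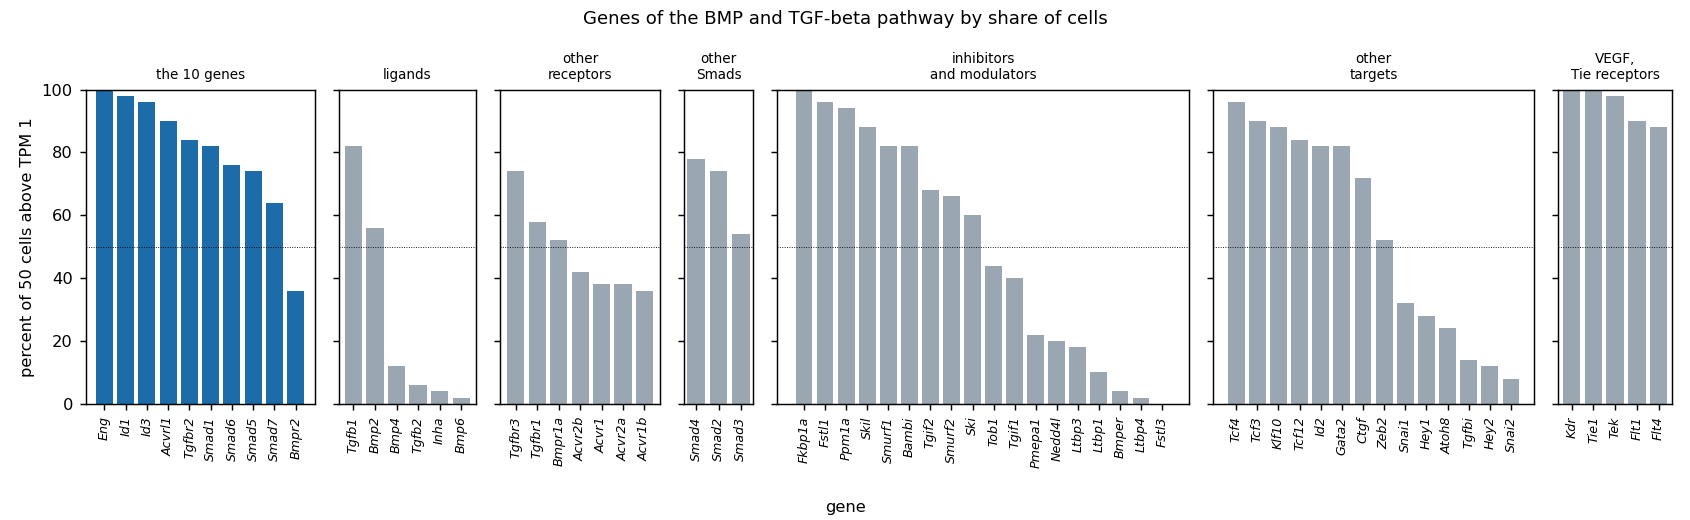
Percent of the 50 cells above TPM 1 for the 10 genes (blue) and the other pathway genes with a row (grey), by list, with a dotted line at 50%. Receptors, inhibitors and targets include widely expressed genes, while most ligands are in few cells, and the VEGF and angiopoietin receptors of the last panel are all above the line.

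Over the 36 other pathway genes in 10 or more cells, 360 pairs with the 10 genes had a median rho of 0.094. Of these pairs, 30 (8.33%) reached 0.3, against 4.46% of all pairs of rows in 10 or more cells. The highest of the 360 values was Acvr1 with Id3, at 0.48, and Acvr1 was listed at 0 in 25 cells. For comparison, the 5 VEGF and angiopoietin receptors Kdr, Flt1, Flt4, Tek and Tie1 were expressed in 44 to 50 cells. Their medians ran from 25.1 to 213 TPM, all below the 345 TPM of Eng. With Eng, their rho ran from 0.07 for Tek to 0.42 for Flt1, below the values of Smad6 and Smad7. Tie1 had its highest value with Tgfbr2, at 0.47.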

How the data were processed

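The series holds polyA RNA of 50 single cells, amplified with a whole-transcriptome kit; no molecular identifiers are named. Per the labels and the study's methods, the authors aligned reads to mm10 with HISAT2 2.1.0, used SAMtools 0.1.19, and estimated the deposited TPM values per gene and cell with StringTie 1.3.4. The rule that selected the 11879 rows is not given in the sources used here, and the columns summed to 942975 to 970894 TPM. TPM keeps no depth, so the precision from sequencing depth is unknown. The sources name different sequencers.

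From these values, medians, ranges, shares of cells above TPM 1 with exact Clopper-Pearson 95% intervals, and Spearman's rho over cells were computed (Python 3.11.15, scipy 1.17.1, pandas 2.3.3). Like genes were searched over 9104 rows above TPM 1 in 10 or more cells. The text names the 10 genes, the 3 highest and the lowest rho of each, and pathway genes in 10 or more cells; 1 gene that this rule names is not reported here. The 10 genes and all lists were chosen with earlier results of these data known. Cells were grouped by label into 1 group. No cell was left out, no doublet caller was run, and no test was made. Genes with no row were not analysed here. Coordinates came from GENCODE M21 on GRCm38, the assembly of mm10. Alternatives were TPM above 0, 5 or 10, pseudocounts of 0.1 and 10, rescaling without 85 ribosomal protein rows, other measures of correlation, and leaving out cells.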

Additional observations from a re-analysis of the deposited data

How the results depend on the processing

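Shares and counts depended most on the level that defines expression. Cells with Eng, Acvrl1 and Bmpr2 together fell to 18% with a level of TPM 10, and those with Tgfbr2 and Acvrl1 were 90% when every value above 0 counted. Smad1 or Smad5 was in 100% of cells at TPM above 0, without first title number 4, and without the 7 cells under 5000 genes, and the range over the numbers left out was 97.2% to 100%. The median number of the 10 genes per cell was 9, 7.5 and 7 at TPM above 0, 5 and 10. With all values above 0 counted, Acvrl1 was in 100% and Smad5 in 90% of cells. With a level of 5, Smad7 was in 48% and Id1 in 88% of cells. With a level of 10, Smad7 was in 34%, Smad5 in 42%, Bmpr2 in 22% and Id1 in 88%. Without number 4, Smad1 was in 94.7% and Id1 in 100%. The rank correlation of Id1 and Id3 was -0.027 without number 3 (range over the numbers left out -0.027 to 0.169), and that of Acvrl1 and Bmpr2 was -0.049 without number 4 (-0.049 to 0.252). For Eng and Acvrl1 it was -0.044 with endothelial markers held constant. Pearson's r was 0.489 for Eng and Smad6 and 0.568 for Eng and Smad7. The mean log2 level of Bmpr2 was 1.24 with a pseudocount of 1, -0.89 with 0.1 and 3.73 with 10. The median rho over the 45 pairs was 0.213 without number 2 and 0.078 to 0.125 under the other alternatives listed for it with all numbers kept, and the rank correlation of receptor and Id means was 0.148 against a Pearson's r of 0.297; both moved by less than the SD within first title numbers (0.138 and 0.164). Over all 45 pairs, 7 changed sign among cells with both genes above 0. The other shares, counts, mean levels and rho values among those fixed as results kept their direction and moved by less than their interval or spread. The causes of the changes were not tested. The rho values of Eng with Smad6, Smad7 and Id3 and of Smad6 with Id3, and the partial rho given endothelial markers, were chosen after seeing the data. No paired analysis was possible because all 50 cells belong to 1 group. With 50 cells of 1 sample and no depth, levels near 0 could not be resolved.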
